A study of Homo sapiens with 12 samples.

Results

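TMD8 is a human diffuse large B cell lymphoma line of the activated B cell-like (ABC) class. It carried a guide RNA against PRMT5 that is switched on by doxycycline, and the later step of its time course is described here: 2 libraries made after 6 days in 20 ng/ml doxycycline against 2 made after 3 days. These are 4 of the 12 RNA sequencing libraries of the study. All 4 came from cells that carried the guide and had been given the drug, so they differ in the length of exposure. The 2 TMD8 libraries of day 0 (guide carried, no doxycycline) helped to estimate the spread. The 6 libraries of OCI-Ly7, a lymphoma line of the germinal centre B cell-like class with an inducible guide against the same gene and the same drug and days, were used for comparison. The labels describe neither a non-targeting guide nor cells given doxycycline alone, so the guide, the drug and the days in culture cannot be told apart, and they do not say whether a line was 1 clone. They also do not say that the 2 libraries of a day came from separate cultures, so p-values measure the spread between these libraries, which may be technical. The days are those of the titles, characteristics and design text; the treatment protocol in the labels gives different ones. Of the 25369 rows of the TMD8 table, the 10456 genes with a mean of at least 1 FPKM (fragments per kilobase of transcript, scaled to the mapped fragments of the library) over its 6 libraries were tested.

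PRMT5 places symmetric dimethyl marks on arginines of histones and of RNA-binding proteins, among them the Sm proteins of the spliceosome, and works in a complex with WDR77. In ABC lymphoma, chronic signalling from the B cell receptor and through NF-kB keeps the cells alive and drives the secretion of cytokines and chemokines. Cytosolic chaperones fold new proteins and are induced as a group by the factor HSF1, and the enzymes of sterol synthesis are induced as a group by SREBP2 when membrane cholesterol is low.

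The gene lists counted here were chosen with earlier results of these data known, so their shares are no independent support. From day 3 to day 6, 8 of 15 genes for chemokines, cytokines and the secreted protease granzyme B rose (CCL4 3.71-fold, IL6 3.56-fold and CCL3 2.85-fold on FPKM). So did 15 of 23 heat shock genes, mainly chaperones of the cytosol and mitochondria (HSPA8 1.77-fold), and 15 of 35 proteasome genes. Of the enzymes of sterol synthesis 13 of 21 fell (MVD to 0.374 and DHCR7 to 0.571 of the day 3 mean), as did 5 of 15 genes of fatty acid synthesis and 7 of 25 factors of B cell fate (POU2AF1 to 0.321 and PAX5 to 0.657). Tested with limma on log2(FPKM + 1) with Benjamini-Hochberg adjustment at 0.05, 820 genes passed, 353 higher and 467 lower at day 6, which is 3.38% and 4.47% of the genes tested. Of these, 51 changed at least 2-fold, 31 higher and 20 lower. Without adjustment 3047 genes had a p under 0.05. After median-ratio scaling, which brings the typical gene of a line to the same level in each of its libraries, 686 genes were higher (6.56%) and 533 lower (5.1%). On both scales 731 genes passed in the same direction (6.99%), 331 higher (3.17%) and 400 lower (3.83%).

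**Figure D1:**
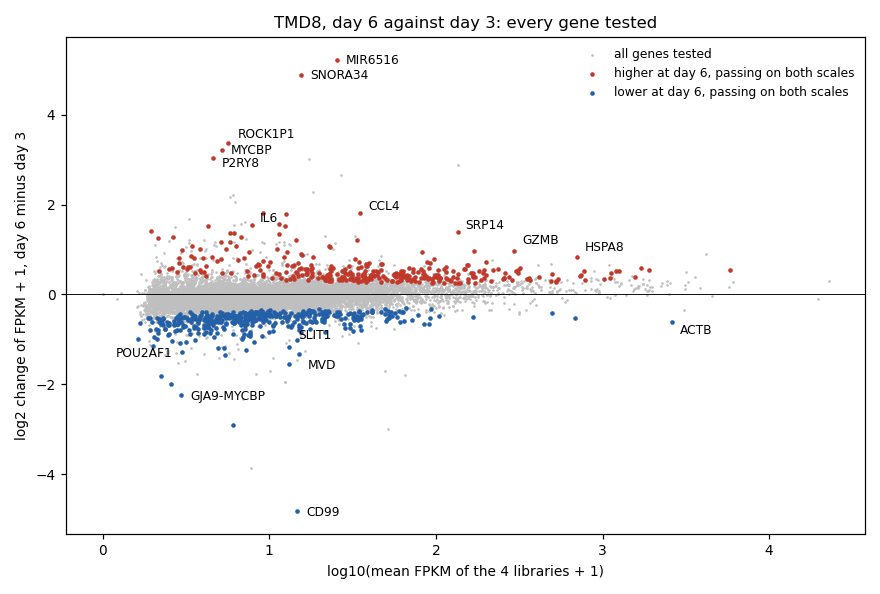
Change of every gene tested in TMD8 (log2 of FPKM + 1, day 6 minus day 3, vertical axis) against its mean level over the 4 libraries (log10 of FPKM + 1, horizontal axis). The 331 genes higher and the 400 lower on both scales are coloured; most lie within 1 log2 unit of 0, and rows of uncertain assignment, such as MIR6516, MYCBP and CD99, stand farthest out.

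The balance of higher and lower genes depended on the scaling. The higher genes made up 43% of those called on FPKM as given, 56.3% after median-ratio scaling, 13.2% after scaling to an equal sum of FPKM and 13.6% when ribosomal, small RNA and histone rows were left out of that sum. The median gene changed by -0.05 as given, by 0.00 after median-ratio scaling and by -0.15 under each of the others. Groups of genes below are therefore to be read beside that median. Counts called in a group are to be read beside the 3.38% of all genes higher and 4.47% lower as given. After equal-sum scaling 175 of the 10456 genes were higher and 1149 lower. By FPKM times length, the 45S pre-ribosomal RNA took 23.5% to 27.3% of each of the 4 libraries, against 6.98% and 10.6% at day 0, and its part in the results was not tested. Depth relative to the first day 0 library, read from the steps of low values, was 0.542 and 0.735 at day 3 and 0.615 and 0.573 at day 6.

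The number of calls rested on both day 3 libraries. Without the first or the second of them 43 and 38 genes passed, against 215 and 216 without a day 0 library and 317 and 422 without a day 6 library. Below, "without either day 3 library" means with each of them left out in turn. The single library left in such a fit is assumed to vary like the other days. Each call below that is not among the 18 made in every one of these fits (0.172% of the genes tested, 0.124% higher and 0.0478% lower) was lost in at least 1 of them. With 2 libraries against 2, an exact two-sided permutation test of a single gene cannot go below p = 0.333, so every call rests on the fit across all genes. The calls made with each library left out in turn include CCL4, its copies CCL4L1 and CCL4L2, GLYATL2 and SRP14 among the higher genes and SLIT1 among the lower. CCL4 and its copies can share reads, so they are not separate results. Also among these calls are a small nucleolar RNA row, a B cell homing receptor gene and a gene of the MYC network. In that network the only call as given was MYCBP, a row of uncertain assignment described below.

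The cells read as B cells in all 4 libraries. Of 10 B cell markers 8 averaged at least 1 FPKM and their sum ran from 1276 to 1399 FPKM. Of 12 ABC lymphoma markers 11 averaged at least 1 FPKM. None of the 14 T and NK cell markers found did, 10 of them were at 0 and their sum stayed between 0.839 and 1.22 FPKM. Of 14 myeloid markers 10, LYZ among them, were at 0, and CD68 made up nearly all of their sum of 39.7 to 47.9 FPKM. In bulk RNA, fewer cells of a kind and less RNA per cell cannot be told apart.

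PRMT5 itself stood at 41.3 and 42.0 FPKM at day 3 and at 49.5 and 54.7 FPKM at day 6, after 64.8 and 60.5 FPKM at day 0. Both day 6 libraries were above both of day 3 and below both of day 0. The difference between days 6 and 3 did not pass as given (log2 change 0.32, SE 0.0740, adjusted p = 0.0553) and passed after median-ratio scaling (0.37, adjusted p = 0.021). In OCI-Ly7 the same step gave -0.59 (adjusted p = 0.0931), and the lines differed by 0.91 (SE 0.154, adjusted p = 0.0113). Among the 7 genes of the PRMT5 complex and its substrate adaptors that were tested, COPRS, an adaptor that brings PRMT5 to histones, was the only one to pass as given. COPRS rose from 22.9 and 22.7 FPKM to 31.5 and 32.8 FPKM (0.48, adjusted p = 0.0295), above both day 0 values of 31.1 and 27.2 FPKM, and did not pass without either day 3 library. The core partner WDR77 read 30.3 and 28.5 FPKM, then 29.3 and 36.4 FPKM, with days that overlapped.

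Of 26 genes listed, which were chemokines, cytokines and GZMB, the gene of a protease, 15 were tested. The members were chosen with earlier results of these data known, so the share called can follow from that choice. Of these, 8 (GZMB among them) were higher and 0 lower at day 6 on either scale. The median log2 change was 0.44 as given and 0.50 after median-ratio scaling. The median stayed above 0 under all 4 scalings (0.32 at the lowest). CCL4, a chemokine that draws T cells and monocytes, stood at 14.5 and 14.6 FPKM at day 3 and at 51.1 and 56.8 FPKM at day 6, after 16.9 and 15.1 FPKM at day 0. The day 3 libraries lay just under those of day 0, and both day 6 libraries stood apart from the other 4 (1.82, SE 0.0865, adjusted p = 0.000891). CCL4 has near-identical copies whose reads can be split among them, and the sum of the rows of CCL4, CCL4L1 and CCL4L2 went from 22.1 and 22.5 FPKM to 81.4 and 90.4 FPKM. CCL3, a related chemokine with copies of its own, rose from 5.01 and 5.77 FPKM to 13.9 and 16.8 FPKM (1.35, adjusted p = 0.00893), with day 0 at 5.46 and 5.77 FPKM. CCL22, which attracts regulatory and helper T cells, rose from 2.27 and 2.14 FPKM to 6.06 and 8.70 FPKM (1.37, adjusted p = 0.0163), after 2.07 and 1.89 FPKM at day 0. The days 0 and 3 of both genes lay close together, well under day 6.

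The cytokine IL6, a growth factor of ABC lymphoma cells, rose from 3.37 and 2.69 FPKM at day 3 to 10.1 and 11.5 FPKM at day 6 (1.55, SE 0.151, adjusted p = 0.013), with day 0 between at 5.27 and 3.92 FPKM. LTA, which encodes lymphotoxin alpha, went from 0.644 and 1.89 FPKM to 6.02 and 4.63 FPKM (1.53, adjusted p = 0.0383). Its libraries of days 0 and 3 overlapped, and the call was lost in all 6 fits that left out a library. IL10 read 35.9 and 33.5 FPKM, then 44.6 and 50.2 FPKM (0.44, adjusted p = 0.0321), which is close to its day 0 values of 46.6 and 45.9 FPKM. IL12B rose from 1.46 and 1.33 FPKM to 2.40 and 2.98 FPKM (0.62, adjusted p = 0.0327). GZMB, the secreted protease granzyme B, rose from 194 and 201 FPKM to 351 and 434 FPKM (0.98, adjusted p = 0.0138), in libraries where the T and NK cell markers summed to at most 1.22 FPKM. Its day 0 values were lower still, at 141 and 143 FPKM. Of these 8 genes CCL4 alone passed without the first day 3 library and CCL4 and CCL3 without the second, and 5 to 7 passed without any other.

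**Figure D2:**
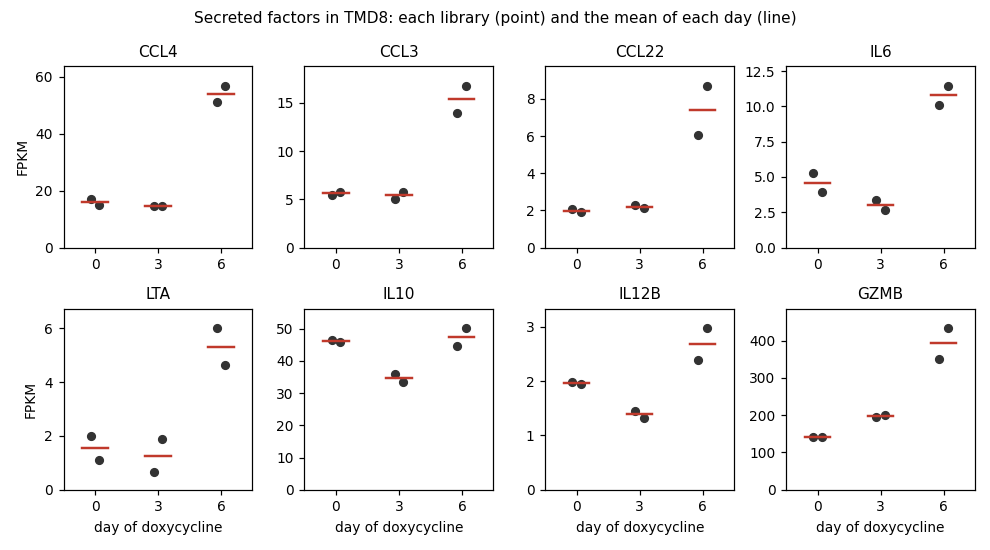
FPKM of the 8 secreted factors that rose, in each of the 6 TMD8 libraries (points, linear axes from 0, drawn separately for each gene) by day of doxycycline, with the mean of each day as a line. In every panel both day 6 libraries lie above both day 3 libraries, and for IL10 they are level with day 0.

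Of 24 other NF-kB targets tested, 4 were higher and 1 lower as given, with a median of 0.15, and 5 were higher after median-ratio scaling against 1 after equal-sum scaling. CD40, the receptor by which T cells activate B cells, rose from 27.6 and 28.5 FPKM to 42.8 and 49.0 FPKM (0.69, SE 0.0809, adjusted p = 0.017), above both day 0 values of 38.7 and 37.6 FPKM. The adhesion receptor CD44 rose from 92.9 and 89.1 FPKM to 113 and 123 FPKM (0.37, adjusted p = 0.0314). The single lower gene was JUNB, a subunit of the factor AP-1, which fell from 14.2 and 12.5 FPKM to 9.70 and 7.97 FPKM (-0.55, adjusted p = 0.0412) but missed the threshold on the median-ratio scale (adjusted p = 0.0651), so that 0 targets were lower there. Of 15 NF-kB subunits and inhibitors 1 was higher and 1 lower as given, with a median of 0.00, against 3 and 0 after median-ratio scaling and 1 and 2 after equal-sum scaling. NFKBIE, an inhibitor that NF-kB itself induces, rose from 21.4 and 21.7 FPKM to 31.7 and 31.2 FPKM (0.52, adjusted p = 0.0163). TNIP1, a partner of the inhibitor TNFAIP3, fell from 58.0 and 60.1 FPKM to 49.1 and 48.6 FPKM (-0.27, adjusted p = 0.0484), and on the median-ratio scale its adjusted p was 0.0889. With either day 3 library left out, 0 genes of either list passed.

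Of 20 costimulatory and TNF receptor genes at the cell surface, 3 were higher and 3 lower. CD274, which encodes the checkpoint ligand PD-L1, rose from 5.61 and 5.86 FPKM to 10.6 and 8.74 FPKM (0.66, SE 0.103, adjusted p = 0.0255), with day 0 between at 7.47 and 7.25 FPKM. TNFRSF13C, the receptor for the survival factor BAFF, fell from 3.71 and 3.88 FPKM to 1.20 and 1.57 FPKM (-1.01, SE 0.110, adjusted p = 0.0151), and its 6 libraries fell in the order of the days. TNFRSF1B, a receptor for TNF, fell from 13.2 and 14.2 FPKM to 9.51 and 9.35 FPKM (-0.49, adjusted p = 0.0228). None of these 6 genes passed without either day 3 library.

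The heat shock list held cytosolic chaperones and cochaperones, the mitochondrial HSPD1, HSPE1 and HSPA9, and the factors HSF1 and HSF2. Among the lists with over 20 genes tested it had the largest share of members called higher: 15 of 23 as given and 17 after median-ratio scaling. On both scales 0 were lower, and the median was 0.41 as given (10 higher and a median of 0.30 under equal-sum scaling). The list is read beside 7.84% of all genes called in either direction. In 21 of the 23 both day 6 libraries lay above both day 3 libraries, which held for 22.8% of all genes. The promoters of 6 of the 21 members in the RefSeq promoter table held the heat shock element, the binding motif of HSF1, searched as GAANNTTCNNGAA on both strands in the 250 bases before the start. Of all 27305 genes with a promoter there, 0.557% held it, and of the promoters of the TRiC, proteasome and sterol lists 0 did. The stretches around it (GRCh38.p14, gene strand, motif in capitals) are shown for the 4 of these genes that passed as given, to show the sequence that they share.
HSPA8, chr11:123062159-123062386, minus strand: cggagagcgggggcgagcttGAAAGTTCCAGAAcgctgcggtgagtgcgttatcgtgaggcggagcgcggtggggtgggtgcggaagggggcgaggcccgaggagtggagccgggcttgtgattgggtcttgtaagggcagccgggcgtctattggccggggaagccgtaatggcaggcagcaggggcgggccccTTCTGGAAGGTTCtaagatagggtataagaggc
HSPD1, chr2:197500048-197500090, minus strand: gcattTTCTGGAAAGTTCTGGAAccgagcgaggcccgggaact
CHORDC1, chr11:90223067-90223129, minus strand: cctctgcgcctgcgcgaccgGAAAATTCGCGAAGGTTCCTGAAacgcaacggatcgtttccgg
DNAJB6, chr7:157336853-157336905, plus strand: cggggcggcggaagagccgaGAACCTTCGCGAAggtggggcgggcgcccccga
The matches in HSPD1 and CHORDC1 overlap one another, and HSPA8 holds 2 that stand apart. The other 2 with a match, HSP90AA1 and HSP90AB1, did not pass as given. A match is a description of these letters, not a measured site. The list was drawn up of known heat shock genes, so its share beside that of all genes can follow from this choice alone. The part of HSF1 in the changes from day 3 to day 6 was not tested.

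HSPA8, the constitutive HSP70 that folds new polypeptides, had the largest change of the group. It stood at 513 and 498 FPKM at day 3 and at 838 and 956 FPKM at day 6 (0.82, SE 0.0919, adjusted p = 0.0157). Both day 6 libraries exceeded all others, day 0 included (640 and 561 FPKM). Its J-domain partners DNAJB1 and DNAJA1, which stimulate the HSP70 ATPase, rose from 22.0 and 22.9 FPKM to 33.8 and 37.6 FPKM (0.64, adjusted p = 0.0184) and from 252 and 260 FPKM to 358 and 410 FPKM (0.58, adjusted p = 0.0263). HSPH1, a nucleotide exchange factor of HSP70, rose from 58.4 and 57.1 FPKM to 81.1 and 90.5 FPKM (0.56, adjusted p = 0.0314). Of the stress-induced HSP70 pair, HSPA1A and HSPA1B, which are near-identical and share reads, the summed rows went from 5.76 and 6.04 FPKM to 9.85 and 11.6 FPKM.

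The mitochondrial chaperonin lid HSPE1 rose from 153 and 148 FPKM to 258 and 241 FPKM (0.72, SE 0.0674, adjusted p = 0.0126). Its barrel partner HSPD1 rose less, from 476 and 470 FPKM to 599 and 610 FPKM (0.35, adjusted p = 0.0499), and its day 6 libraries lay within the range of day 0 (662 and 572 FPKM). Among cochaperones of HSP90, FKBP4 rose from 88.3 and 91.2 FPKM to 136 and 140 FPKM (0.61, adjusted p = 0.0163), AHSA1 by 0.56 (adjusted p = 0.0172) and CHORDC1 by 0.66 (adjusted p = 0.0228). The HSP90 genes themselves did not pass as given: HSP90AB1 read 825 and 850 FPKM, then 1014 and 1078 FPKM (adjusted p = 0.063), and the day 3 libraries of HSP90AA1 differed widely, at 409 and 265 FPKM. The factor HSF1, named after its values were seen, read 23.3 and 25.0 FPKM, then 22.0 and 23.6 FPKM, with days that overlapped. Leaving out either day 3 library left 0 of the 15 calls, and any other library 6 to 8.

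In OCI-Ly7 the median of the 23 heat shock genes over the same step was -0.31 as given. On that scale 0 passed in either direction, where 0.218% of the 11016 genes tested did (0.0999% higher and 0.118% lower), and without adjustment limma gave a p under 0.05 for 11 lower and 1 higher. After median-ratio scaling 6 were lower, where 8.75% of all genes passed (4.23% higher and 4.52% lower). The test of the difference between the lines put TMD8 above OCI-Ly7 for 16 of the 23 heat shock genes and below for 0, against 7.78% and 7.03% of the 9688 genes tested. For HSPA8 the OCI-Ly7 change was -1.05 and the difference 1.87 (SE 0.172, adjusted p = 0.00274), and for HSPH1 -1.36 and 1.92 (adjusted p = 0.0203). HSPB1, a small heat shock protein, had changes of 0.45 in TMD8 and 0.49 in OCI-Ly7, a difference of -0.04 (SE 0.199, adjusted p = 0.914).

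**Figure D3:**
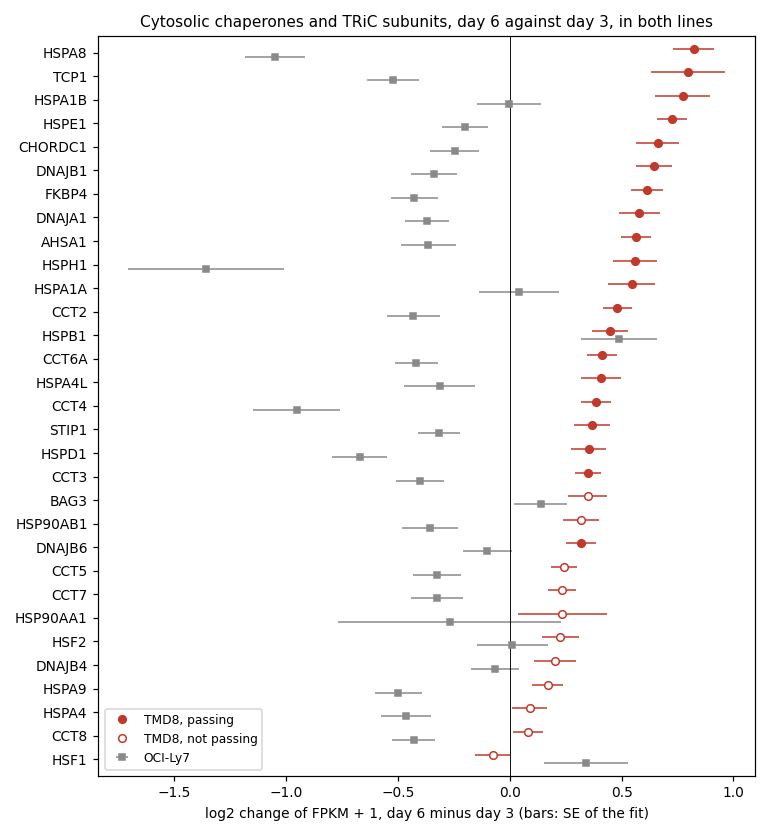
Log2 change of FPKM + 1, day 6 minus day 3, of the 23 genes of the heat shock list, mitochondrial members and HSF1 and HSF2 included, and the 8 TRiC subunits (horizontal axis, bars are the SE of the fit) in TMD8 (circles, filled where adjusted p is under 0.05) and OCI-Ly7 (squares). TMD8 lies to the right of 0 for all but HSF1, and most OCI-Ly7 values lie to the left of 0.

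TRiC, the ring-shaped chaperonin that folds actin and tubulin, had 5 of 8 subunits higher as given and 7 after median-ratio scaling, with a median of 0.37 that stayed above 0 under all 4 scalings; after equal-sum scaling 1 passed. TCP1 rose from 70.8 and 69.1 FPKM to 120 and 125 FPKM (0.80, SE 0.167, adjusted p = 0.0441), although its day 0 libraries differed, at 116 and 78.9 FPKM. CCT2 rose from 141 and 135 FPKM to 187 and 199 FPKM (0.48, adjusted p = 0.0192). CCT8 read 179 and 170 FPKM, then 179 and 190 FPKM, and did not pass. All 8 subunits passed the test of the difference, with TMD8 above OCI-Ly7, whose median was -0.42. Leaving out either day 3 library or the second day 6 library left 0 of the 5 calls.

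Of 35 proteasome genes 15 were higher and 0 lower (18 after median-ratio scaling and 5 after equal-sum scaling), with a median of 0.25 as given and 0.13 after equal-sum scaling. The members called include subunits of the core particle and of the base and lid of the regulatory particle. PSMC3, an ATPase of the base that unfolds substrates, rose from 103 and 103 FPKM to 144 and 154 FPKM (0.53, SE 0.0709, adjusted p = 0.0196), above both day 0 values of 141 and 128 FPKM. PSMB3, of the catalytic ring, rose from 167 and 169 FPKM to 227 and 229 FPKM (0.44, adjusted p = 0.0186), and PSMD13, of the lid, from 73.5 and 72.6 FPKM to 96.8 and 98.3 FPKM (0.41, adjusted p = 0.0186). TMD8 was above OCI-Ly7 for 20 of the 35 in the test of the difference, where the OCI-Ly7 median was -0.22. No proteasome gene passed without either day 3 library, and 2 or 3 passed without any other.

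Of 32 folding genes of the endoplasmic reticulum 2 were higher and 1 lower, none of them without either day 3 library. CALR, a lectin chaperone, rose from 241 and 258 FPKM to 353 and 379 FPKM (0.55, adjusted p = 0.0238), whereas CRELD2, a folding factor that endoplasmic reticulum stress induces, fell from 20.6 and 22.5 FPKM to 13.9 and 14.1 FPKM (-0.58, adjusted p = 0.0177). HSPA5, the BiP chaperone that reports unfolded protein stress, read 50.2 and 53.1 FPKM, then 61.8 and 72.0 FPKM, and passed after median-ratio scaling but not as given (adjusted p = 0.0947).

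Of 79 cytosolic ribosomal protein genes 21 were higher and 0 lower as given, 13 after median-ratio scaling and 8 after equal-sum scaling, and the median of 0.24 fell to 0.11 on the last. RPL35, of the large subunit, rose from 1497 and 1626 FPKM to 2186 and 2334 FPKM (0.53, SE 0.0670, adjusted p = 0.0185), and its change in OCI-Ly7 was 0.48, which did not pass. Of 46 ribosome biogenesis genes 5 were higher and 0 lower. EBNA1BP2, an assembly factor of the large subunit, rose from 65.9 and 65.3 FPKM to 103 and 115 FPKM (0.73, adjusted p = 0.0138), and POLR1C, shared by RNA polymerases I and III, from 30.5 and 27.8 FPKM to 43.8 and 48.0 FPKM (0.64, adjusted p = 0.0172). Both exceeded their day 0 values. The lines differed for 22 of the 46, TMD8 above in each, with an OCI-Ly7 median of -0.43 against 0.18. Leaving out either day 3 library left 0 calls in both lists, and in the first list leaving out a day 6 library left 1 and 2.

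Among the Sm, LSm and SMN genes, which build the spliceosomal particles whose proteins PRMT5 methylates, 5 of 33 were higher and 1 lower. SNRPA1, a U2 particle protein, rose from 35.4 and 35.8 FPKM to 59.3 and 56.5 FPKM (0.69, SE 0.0672, adjusted p = 0.013), and GEMIN6, of the SMN complex, from 27.5 and 24.8 FPKM to 39.1 and 40.1 FPKM (0.58, adjusted p = 0.0182). SMN1 and SMN2, which are nearly identical and share reads, went opposite ways: SMN1 from 8.80 and 6.62 FPKM to 17.9 and 20.5 FPKM, SMN2 from 18.1 and 18.9 FPKM to 9.79 and 7.63 FPKM. Their sum was level, at 26.9 and 25.5 FPKM and then 27.6 and 28.1 FPKM, so neither row is read as a change of its gene. Both rows are in the counts above, SMN1 among the higher and SMN2 as the single lower call. None of the 6 calls was made without either day 3 library.

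Of the 21 enzymes of sterol synthesis 13 were lower at day 6 and 0 higher, with a median of -0.46 (12 lower and -0.40 after median-ratio scaling, 17 lower and -0.57 after equal-sum scaling). In 19 both day 6 libraries lay under both day 3 libraries, which held for 35.2% of all genes. The sterol regulatory element, the binding motif of SREBP, was searched as TCACNCCAC on both strands in the same promoter windows. The promoter table has 16 of the members, and 0 of the 16 held it, against 1.09% of all genes there; no match says only that these letters are not in these windows. The shorter CCAAT box, searched as CCAAT on both strands, stood in 14 of the 16 (87.5%) and in 37% of all promoters. Among the lists that rose it stood in 57.1% of TRiC, 50% of proteasome, 38.1% of heat shock and 23.1% of chemokine promoters. The sterol list was drawn up of known enzymes, so its share can follow from this choice alone. MVD, which decarboxylates mevalonate diphosphate, changed most, from 19.7 and 21.2 FPKM at day 3 to 8.45 and 6.86 FPKM at day 6 (-1.32, SE 0.103, adjusted p = 0.00627), after 33.0 and 32.4 FPKM at day 0. Its libraries fell in the order of the days with no overlap.

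Further down the pathway, SQLE, which oxidises squalene in the first oxygen-dependent step, fell from 60.4 and 59.2 FPKM to 38.8 and 42.0 FPKM (-0.56, adjusted p = 0.0172). DHCR7, which makes cholesterol from 7-dehydrocholesterol, fell from 43.0 and 44.8 FPKM to 25.2 and 24.9 FPKM (-0.78, adjusted p = 0.00627). FDFT1, which makes squalene, fell by 0.45 on the log2 scale (adjusted p = 0.0172). HMGCS1, an early synthase of the pathway, read 27.2 and 47.4 FPKM, then 12.2 and 29.5 FPKM; its libraries of each day differed widely and overlapped (adjusted p = 0.286). PMVK, the kinase just before MVD, was the one member with a change above 0, at 0.18 (adjusted p = 0.167). MVD and DHCR7 were the 2 that passed without the first day 3 library, 0 passed without the second, and 6 or 7 passed without any other.

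Of 13 genes of sterol uptake and SREBP control 3 were lower as given and 1 after median-ratio scaling. SREBF2, the gene of SREBP2, fell from 36.3 and 39.3 FPKM to 23.2 and 27.1 FPKM (-0.57, adjusted p = 0.0311), and INSIG1, which holds SREBP in the endoplasmic reticulum, from 49.4 and 47.9 FPKM to 35.4 and 27.6 FPKM (-0.62, adjusted p = 0.0334; 0.0646 after median-ratio scaling). Of 15 genes of fatty acid synthesis 5 were lower and 0 higher. The synthase FASN fell from 41.0 and 43.5 FPKM to 25.0 and 26.4 FPKM (-0.70, SE 0.0731, adjusted p = 0.0138), and SCD, which introduces the first double bond, from 107 and 99.2 FPKM to 64.0 and 64.8 FPKM (-0.67, adjusted p = 0.013). ACSS2, which makes acetyl-CoA from acetate, fell from 4.63 and 4.69 FPKM to 2.48 and 1.78 FPKM (-0.86, adjusted p = 0.022). None of the genes of these 2 lists passed without either day 3 library.

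In OCI-Ly7 the median of the 21 sterol enzymes was -0.39 over the same step, although limma called 0 as given (11 lower and 1 higher had an unadjusted p under 0.05) and 6 lower and 1 higher after median-ratio scaling. The lines differed for 2 of the 21. For MVD, where the OCI-Ly7 change was 0.42, the difference was -1.74 (SE 0.328, adjusted p = 0.0141). For TM7SF2, a sterol reductase, TMD8 fell from 15.6 and 13.2 FPKM to 9.67 and 9.68 FPKM while the OCI-Ly7 change was 0.47, a difference of -0.99 (SE 0.136, adjusted p = 0.00704).

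**Figure D4:**
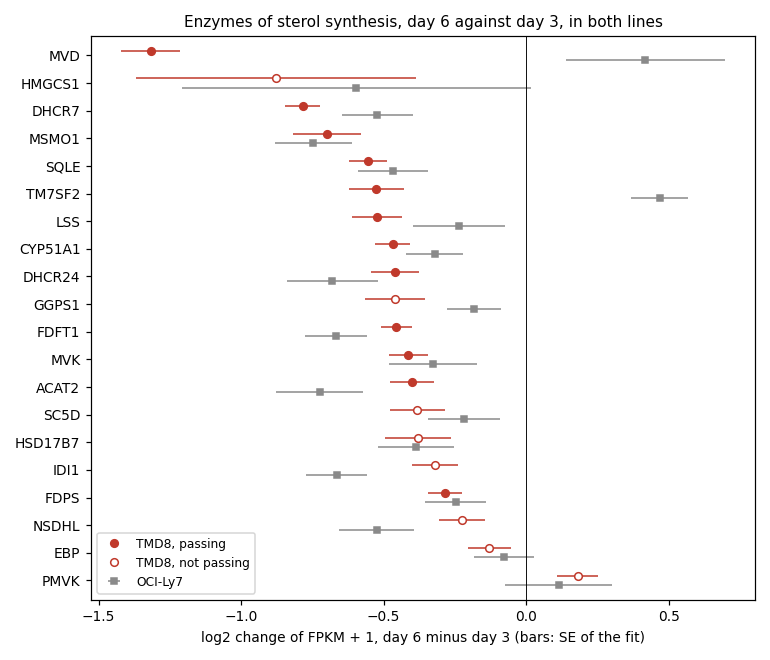
Log2 change of FPKM + 1, day 6 minus day 3, of 20 of the 21 sterol synthesis enzymes (horizontal axis, bars are the SE of the fit) in TMD8 (circles, filled where adjusted p is under 0.05) and OCI-Ly7 (squares). All TMD8 values but that of PMVK lie under 0, and the OCI-Ly7 values of MVD and TM7SF2 lie on the other side of 0 from those of TMD8.

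Of 25 transcription factors and regulators of B cell fate 7 fell and 1 rose, with a median of -0.22 that kept its sign under all 4 scalings. POU2AF1, the B cell coactivator of octamer promoters, fell from 3.43 and 3.10 FPKM at day 3 to 1.05 and 1.05 FPKM at day 6 (-1.06, SE 0.0972, adjusted p = 0.0124), after 2.00 and 1.86 FPKM at day 0. Day 3 was the highest of the 3 days. PAX5, which commits and holds cells to the B lineage, fell from 7.08 and 7.84 FPKM to 4.45 and 5.35 FPKM (-0.52, adjusted p = 0.0406), from 10.7 and 10.1 FPKM at day 0. MEF2C fell by 0.60 (adjusted p = 0.0338), IKZF1, the gene of Ikaros, by 0.46 (adjusted p = 0.0348) and TCF3, the gene of E2A, by 0.32 (adjusted p = 0.0451).

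ID1, an inhibitor of E proteins such as E2A, fell from 4.68 and 4.13 FPKM to 2.42 and 2.55 FPKM (-0.63, adjusted p = 0.0256). ETS1, which restrains plasma cell formation, was the one that rose, from 4.68 and 3.67 FPKM to 8.03 and 9.80 FPKM (0.94, SE 0.132, adjusted p = 0.0219), and both day 6 libraries remained far under the 18.8 and 17.7 FPKM of day 0. IRF4, on which ABC lymphoma cells depend, read 361 and 348 FPKM, then 244 and 301 FPKM, with no overlap, and did not pass (-0.39, adjusted p = 0.078). MYC read 62.1 and 63.2 FPKM, then 41.3 and 53.8 FPKM (-0.40, adjusted p = 0.0944). The lines differed for 8 of the 24 factors tested in both, with TMD8 below OCI-Ly7 in each. For PAX5, whose OCI-Ly7 change was 0.52, the difference was -1.04 (SE 0.153, adjusted p = 0.00782). Leaving out either day 3 library left 0 of the 8 calls.

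Within B cell receptor signalling 5 of 25 genes were lower and 2 higher. PLCG2, the phospholipase below BTK, fell from 31.1 and 30.7 FPKM to 19.8 and 22.2 FPKM (-0.54, SE 0.0789, adjusted p = 0.0228). CD22, an inhibitory coreceptor, fell from 26.9 and 27.3 FPKM to 18.7 and 20.3 FPKM (-0.46, adjusted p = 0.0232), and PTPRC, the CD45 phosphatase, from 38.0 and 33.4 FPKM to 25.6 and 27.4 FPKM (-0.41, adjusted p = 0.0383). BTK itself, the kinase that ibrutinib blocks, rose from 87.9 and 85.6 FPKM to 110 and 124 FPKM (0.42, adjusted p = 0.0327), still under the 135 and 127 FPKM of day 0. FCGR2B, the inhibitory Fc receptor, rose from 2.32 and 3.23 FPKM to 5.51 and 5.42 FPKM (0.79, adjusted p = 0.0321). The receptor chain CD79B read 158 and 162 FPKM, then 153 and 150 FPKM, and did not pass. None of the 7 passed without either day 3 library.

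Of 45 genes of DNA replication 5 were higher and 1 lower, against 13 and 1 after median-ratio scaling and 1 and 1 after equal-sum scaling. PCNA, the sliding clamp, rose from 195 and 185 FPKM to 274 and 287 FPKM (0.56, SE 0.0659, adjusted p = 0.017), whereas POLD1, the catalytic subunit of polymerase delta that PCNA holds on DNA, fell from 39.8 and 39.2 FPKM to 23.1 and 21.1 FPKM (-0.81, SE 0.0722, adjusted p = 0.0107). Among G1 regulators 3 of 20 were higher, with CCNE2, a cyclin of S phase entry, going from 2.26 and 2.32 FPKM to 3.95 and 4.25 FPKM (0.63, adjusted p = 0.0263). Of 50 genes of mitosis 3 were lower and 1 higher as given, where 4.47% and 3.38% of all genes were. After equal-sum scaling 16 were lower with a median of -0.23, where 1149 of all 10456 genes were lower with a median of -0.15. TOP2A, the topoisomerase of chromosome condensation, fell from 74.6 and 69.9 FPKM to 46.6 and 47.0 FPKM (-0.61, adjusted p = 0.0151). Of 15 genes of the BCL2 family 1 was higher and 1 lower as given. The lower one was the survival gene BCL2, which fell from 19.0 and 17.5 FPKM to 11.1 and 12.5 FPKM (-0.59, adjusted p = 0.0221). Of 29 p53 targets 1 was higher, TP53I3 (0.47, adjusted p = 0.0306), where 3.38% of all genes were. CDKN1A read 62.5 and 66.7 FPKM, then 58.6 and 56.9 FPKM. None of the genes named here passed without either day 3 library.

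Of 35 cytoskeletal and actin genes 7 were lower and 5 higher. ACTB, the most abundant, fell from 2915 and 3366 FPKM to 1925 and 2214 FPKM (-0.60, SE 0.108, adjusted p = 0.032), from 4859 and 4324 FPKM at day 0, and TPM4, a tropomyosin, from 112 and 108 FPKM to 65.8 and 74.3 FPKM (-0.65, adjusted p = 0.0172). The intermediate filament gene VIM rose from 159 and 156 FPKM to 233 and 231 FPKM (0.55, adjusted p = 0.013). Of 22 immediate early genes 4 were lower and 1 higher, with JUND, an AP-1 subunit, going from 17.5 and 18.1 FPKM to 10.9 and 9.91 FPKM (-0.72, adjusted p = 0.016). Of 19 interferon response genes 3 were lower and 0 higher as given, and 4 and 2 after median-ratio scaling. IFI27 fell from 8.82 and 9.34 FPKM to 4.55 and 4.14 FPKM (-0.92, adjusted p = 0.0196), and outside that list IFITM1, a membrane protein that blocks virus entry, fell from 10.8 and 10.7 FPKM to 4.90 and 5.50 FPKM (-0.93, adjusted p = 0.0107). The values of IFITM1 at day 0 were 10.7 and 10.8 FPKM. Of the genes in these 3 lists none named here passed without either day 3 library.

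Among single genes outside the lists, SRP14, a subunit of the signal recognition particle, rose from 70.2 and 76.9 FPKM to 202 and 188 FPKM (1.39, SE 0.0747, adjusted p = 0.00145). Its day 0 values were 85.5 and 90.7 FPKM, so both day 6 libraries stood apart from the other 4. GLYATL2, an acyltransferase, rose from 4.95 and 4.64 FPKM to 16.5 and 16.0 FPKM (1.57, SE 0.0764, adjusted p = 0.000891). SLIT1, a secreted guidance protein, fell from 16.8 and 17.3 FPKM to 6.71 and 7.44 FPKM (-1.16, SE 0.0771, adjusted p = 0.00388), from 24.3 and 25.1 FPKM at day 0. SPP1, the gene of osteopontin, fell from 9.04 and 9.22 FPKM to 3.78 and 2.82 FPKM (-1.25, adjusted p = 0.0228), and ST6GAL1, which adds the sialic acid that CD22 binds, from 7.80 and 8.41 FPKM to 3.94 and 3.27 FPKM (-0.99, adjusted p = 0.0131). Neither SPP1 nor ST6GAL1 passed without either day 3 library.

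The rows with the largest changes of all were ones whose assignment of reads is uncertain, and no fold is given against 0. P2RY8 was listed at 0 in both day 3 libraries, at 8.04 and 6.36 FPKM at day 6 and at 16.5 and 16.9 FPKM at day 0. CD99 was listed at 0 in both day 6 libraries, after 26.5 and 28.0 FPKM at day 3 and 34.0 and 32.8 FPKM at day 0. Both genes lie in the pseudoautosomal region, which both sex chromosomes carry, and a 0 in such a file can be a failed estimate. MYCBP was listed at 0 at day 3 while the read-through row GJA9-MYCBP, which contains it, held 4.06 and 3.74 FPKM, and at day 6 MYCBP held 8.07 and 8.63 FPKM and the read-through row 0.0241 and 0.0384 FPKM. SNORA34 went from 0 and 0 FPKM to 34.0 and 24.0 FPKM while MIR1291, which overlaps it on the same strand, went from 15.4 and 4.46 FPKM to 0.220 and 0.308 FPKM. Each pair of overlapping rows moved in opposite directions, but their sums were not level. MYCBP with GJA9-MYCBP summed to 4.06 and 3.74 FPKM at day 3 and to 8.10 and 8.67 FPKM at day 6. SNORA34 with MIR1291 summed to 15.4 and 4.46 FPKM, then to 34.3 and 24.3 FPKM. Whether these sums reflect a change of the genes was not tested.

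**Figure D5:**
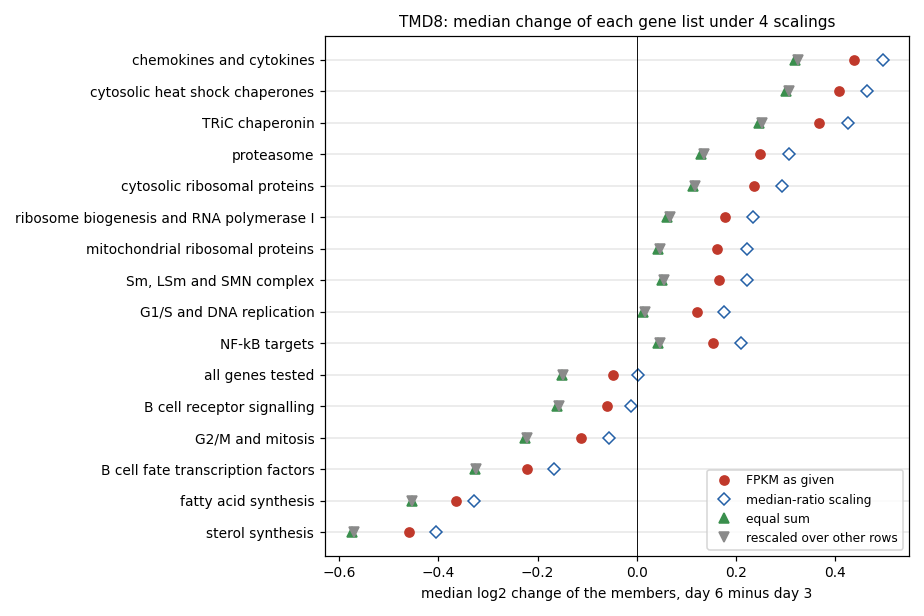
Median log2 change of FPKM + 1, day 6 minus day 3, over the members of 15 gene lists and over all genes tested in TMD8 (horizontal axis), on FPKM as given and under 3 rescalings. The medians of the heat shock, TRiC, proteasome and chemokine lists lie above 0 and those of the sterol, fatty acid and B cell fate lists under 0 under every scaling.

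Over the 9688 genes tested in both, the changes in TMD8 and OCI-Ly7 had a Pearson correlation of -0.124 as given and -0.126 after median-ratio scaling. This is a description across genes, which are not independent replicates, and no library is shared between the lines. In OCI-Ly7 itself 24 genes passed as given (11 higher, 13 lower) and 964 after median-ratio scaling. The test of the difference passed for 1435 genes, 754 with TMD8 above and 681 with TMD8 below, which is 14.8% of the genes tested, and for 2508 (25.9%) after median-ratio scaling, 15% above and 10.9% below. The median difference over all genes was -0.02 as given. It was -0.01 without the first day 3 library of TMD8 and -0.04 without the second. Without the first day 3 library of OCI-Ly7 it was -0.09, and without the second 0.05. The 45S RNA took 19.1% of the first of these OCI-Ly7 libraries and 27.4% of the second, and its part was not tested.

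Of the genes with the largest differences, ID1 fell in TMD8 and rose in OCI-Ly7 (1.50, adjusted p = 0.0133), a difference of -2.14 (SE 0.137, adjusted p = 0.000309). For MSL2, a subunit of a histone acetyltransferase complex, TMD8 read 6.63 and 6.39 FPKM, then 5.39 and 5.89 FPKM, and OCI-Ly7 rose by 2.47 (adjusted p = 0.00354), a difference of -2.65 (SE 0.150, adjusted p = 0.000185). For SLC16A1, a lactate transporter, OCI-Ly7 fell by 2.84 (adjusted p = 0.00241), and the 2 day 3 libraries of TMD8 lay at 19.9 and 7.50 FPKM, a difference of 3.43 (SE 0.463, adjusted p = 0.00653).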

How the data were processed

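RNA of the 12 libraries (2 lines, 3 days, 2 libraries each) was sequenced, and the authors deposited 1 table of FPKM values per line, already normalized for transcript length and library size. Per the submitters' processing notes HISAT, StringTie and hg19 were used; their versions and settings, the annotation and the use of strand are not given in the sources used here. FPKM tables keep no total counts, so the depth behind a value is known only in relative terms, and a change on the log2(FPKM + 1) scale understates that of low genes.

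Genes with a mean of at least 1 FPKM over the 6 libraries of a line were tested with limma 3.58.1 (R 4.3.3) on log2(FPKM + 1), with all 3 days of the line in the fit, 3 residual degrees of freedom and a trended variance prior. The difference between lines came from 1 fit over the 9688 genes tested in both. P-values were adjusted (Benjamini-Hochberg) over all genes, with 0.05 as the threshold. The fit was tested on simulated data. The members and the gene lists were chosen with earlier results of these data known. In all, 56 lists were drawn up; those described are the ones the results turn on.

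Genes were named by rule: the 15 largest changes per direction at 5 FPKM or more, passing and not overlapping on both scales; the 5 largest per direction among rows at 0 or read-through rows; up to 8 called members of each list; a fixed set of PRMT5, B cell, chemokine and sterol genes; and the 5 largest differences between lines per direction. HSF1 was named outside it, as were the members of lists given in full. Some genes that the rule names are not reported here.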

Additional observations from a re-analysis of the deposited data

Results flagged for a closer look

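The step from day 3 to day 6 differed between TMD8 and OCI-Ly7, by limma's test of the difference itself with an adjusted p under 0.05, for 1435 of the 9688 genes tested in both lines. Of the genes named in the text, 61 were among them, 58 of which are given here. Each value here is the log2 change in TMD8 minus that in OCI-Ly7, so a value above 0 means that TMD8 lay above OCI-Ly7.

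Within the HSP70 and chaperonin systems the difference was 1.87 for HSPA8, 1.92 for HSPH1, 0.78 for HSPA1B, 0.98 for DNAJB1, 0.95 for DNAJA1 and 0.42 for DNAJB6. It was 1.02 for HSPD1, 0.92 for HSPE1, 1.32 for TCP1, 0.91 for CCT2 and 0.51 for CCT8 among chaperonins and their lid. Around HSP90 it was 0.68 for HSP90AB1, 1.04 for FKBP4, 0.93 for AHSA1 and 0.91 for CHORDC1, and in the endoplasmic reticulum 0.77 for CALR, 0.96 for HSPA5 and -0.68 for CRELD2. All of these but CRELD2 lay on the side of TMD8. Proteasome subunits had differences of 0.62 for PSMC3, 0.39 for PSMB3 and 0.73 for PSMD13. In ribosome and spliceosome assembly the values were 1.26 for EBNA1BP2, 1.10 for POLR1C, 0.90 for SNRPA1 and 0.75 for GEMIN6, and for the methyltransferase and its partner 0.91 for PRMT5 and 0.54 for WDR77.

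Sterol enzymes differed by -1.74 for MVD and -0.99 for TM7SF2. Among regulators of B cell fate TMD8 lay below, with -2.14 for ID1, -1.25 for POU2AF1, -1.04 for PAX5, -0.75 for TCF3 and -0.59 for MEF2C. In signalling and at the surface the difference was -0.75 for PLCG2, -0.79 for CD22, -0.69 for PTPRC, -1.11 for TNFRSF13C, -1.42 for ST6GAL1 and -0.51 for TNIP1, against 0.76 for BTK, 1.20 for FCGR2B and 1.08 for CCL22. In the cell cycle it was 0.82 for PCNA, 1.17 for CCNE2, -1.26 for POLD1 and -0.78 for TOP2A, and -0.80 for BCL2 among survival genes. Mitochondrial proteins gave 0.54 for MRPL18, -0.50 for MRPL42 and 0.41 for NDUFS3. The cytoskeletal, AP-1 and interferon-related genes gave -0.66 for ACTB, -0.79 for TPM4, -1.34 for JUND and -1.27 for IFITM1.

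Of the remaining genes, the difference was -2.65 for MSL2 and 3.43 for SLC16A1. The day 3 libraries of SLC16A1 in TMD8 were far apart. Among rows of uncertain assignment it was 5.37 for MIR6516, whose day 3 values in TMD8 were 0.304 and 0.301 FPKM. For SNORA34, MYCBP and CD99, which also passed, no size is given because both TMD8 libraries of day 3 or day 6 were listed at 0.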

How the results depend on the processing

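Of the 97 genes named in the text that passed, all kept their direction under every alternative that was run, and 94 also passed after median-ratio scaling, 89 after equal-sum scaling, 96 with a pseudocount of 0.1 and 88 without a variance trend. With the compared days alone 61 of them passed, and with no filter 61. Fewer passed with any library left out, and fewest without a day 3 library. The genes left without the first day 3 library were not all those left without the second. In TMD8, against 820 genes called, 1324 were called after equal-sum scaling, 1843 when ribosomal, small RNA and histone rows were left out of the sum, 359 with no filter on low values and 200 with the libraries of the compared days alone. Leaving out a library gave 38 to 422, and doing so after median-ratio scaling, an alternative added after seeing the data, gave 166 without a day 0 library, 54 and 42 without a day 3 library, 486 without the first day 6 library and 664 without the second. In OCI-Ly7, against 24, the counts were 964 after median-ratio scaling, 556 after equal-sum scaling, 1209 without those rows and 27 to 48 with a library left out. For the difference between lines, against 1435, they were 2508 after median-ratio scaling, 2235 without those rows, 446 with the compared days alone and 295 to 1663 with a library left out. The cause of these shifts was not tested.

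With the replicate number as a block (replicate block) 58 genes passed in TMD8, 32 of the 97 among them. The libraries share only a number: same-numbered libraries of TMD8 deviated together with r = 0.078 between days 3 and 6, -0.103 between days 0 and 3 and -0.147 between days 0 and 6.

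The sign turned only for genes that had not passed. CCT8 went to -0.041 under equal-sum scaling and to -0.036 without ribosomal, small RNA and histone rows. With a library left out, HSP90AA1 ran from -0.078 to 0.55, SLC16A1 from -0.063 to 1.24 and WDR77 from -0.0077 to 0.30. After median-ratio scaling and without the second day 3 library HSP90AA1 went to -0.0026, HSF1 to 0.044 and CD79B to 0.013, and CD79B went to 0.052 without the second day 6 library. FPKM gives no total count, so no interval for counting error can be given.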

Other observations

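Among gene groups not described above, 10 of 76 mitochondrial ribosomal protein genes were higher at day 6 and 1 lower, with a median log2 change of 0.16 as given and 0.04 after equal-sum scaling, where 5 were higher and 2 lower. MRPL18 rose from 37.1 and 37.6 FPKM to 53.5 and 56.4 FPKM (0.55, SE 0.0672, adjusted p = 0.0177). The one called lower was MRPL42, which fell from 20.0 and 17.6 FPKM to 9.90 and 10.2 FPKM (-0.84, SE 0.0816, adjusted p = 0.013), after 23.3 and 23.4 FPKM at day 0. Of 37 nuclear genes of respiratory complex I 5 were higher and 0 lower as given, and 3 and 3 after equal-sum scaling. NDUFS3, a core subunit, rose from 87.2 and 83.3 FPKM to 118 and 111 FPKM (0.42, adjusted p = 0.0229).

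In the lists of amino acid use single genes fell, where 4.47% of all genes tested were called lower. The list medians did not lie under the -0.05 of all genes, so no change of either list as a group is read from these counts. Of 19 tRNA synthetase genes 3 were lower and 0 higher, with a median of 0.04. AARS, which charges alanine tRNA, fell from 55.4 and 57.0 FPKM to 41.7 and 40.9 FPKM (-0.43, SE 0.0569, adjusted p = 0.0186). Of 26 genes of the ATF4 amino acid response 2 were lower and 0 higher, with a median of -0.01. Among the lower was SLC7A5, a leucine transporter, which went from 81.6 and 87.3 FPKM to 51.5 and 61.9 FPKM (-0.57, adjusted p = 0.0306). None of these 5 genes passed without the first day 3 library of TMD8, and MRPL42 alone passed without the second.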
